A study of Mus musculus with 4 samples.

Results

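Interferon-beta, its receptor and the machinery that senses nucleic acid in the cytosol were followed as a group of 10 genes in 1° mouse oligodendroglial cell (OGC) cultures. The group holds Ifnb1, the receptor genes Ifnar1 and Ifnar2, the sensor genes Ifih1, Ddx58, Dhx58, Zbp1 and Eif2ak2, and Mavs and Tbk1, which act downstream of the sensors. The genes were taken by symbol from 53465 genes in the count tables, and all 10 were present. They were chosen with the differences between Zfp276cko and ctrl libraries in these data already known, so their values are given as a description, and the calls of the fits across all genes are printed beside them without being read as support.

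The RNA came from cultures kept under differentiating conditions for 3 days (3ddiff), with 2 ctrl and 2 Zfp276cko preparations, each made from 3 mice of postnatal day 2 to 4. Per the study's methods, CNTF took the place of mitogens to differentiate mouse cultures, and mice of both groups had a mixed strain background. The ctrl mice were Zfp276 flox/flox, and the Zfp276cko mice were Sox10::Cre tg; Zfp276 flox/flox, so both carried the floxed alleles and differed by the Cre transgene. Sox10::Cre removes Zfp276, which encodes a zinc finger protein, from cells that express Sox10, and other cells in the culture keep the gene. A Rosa26 stopflox tdTomato allele was crossed into mice used for these cultures, which came from forebrain and were depleted of microglia. The ctrl libraries held 21311469 and 21068322 counts in total, and the Zfp276cko libraries 25265366 and 26599809. The targeted gene served as a check of the labels, and Zfp276 counts were 1388 and 1982 for ctrl against 541 and 585 for Zfp276cko. Its normalized count, scaled with TMM factors to the mean size of the 4 libraries, was 1939 ± 412 in ctrl and 496 ± 9.24 in Zfp276cko (SD, n = 2), and both Zfp276cko libraries were below both ctrl libraries (log2 fold change -1.97, SE 0.18, adjusted p = 0.0962 with the edgeR quasi-likelihood test). The counts cover the whole gene, whereas Cre removes exons 2 to 5 only.

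The labelled cell type was checked against markers. For Mbp, a major myelin protein gene, the ctrl libraries held 99446 and 158143 counts and the Zfp276cko libraries 96326 and 104727, and all 11 oligodendrocyte markers listed for the check had counts in each library. The 2 ctrl libraries stood apart from each other. The biological coefficient of variation was 0.357 between the ctrl libraries and 0.0480 between the Zfp276cko libraries. Among genes tested with a mean of at least 20 normalized counts, a difference of 2-fold or more separated the ctrl libraries in 12.7%, and the Zfp276cko libraries in 0.307%. Differences between genotypes in the 10 genes are therefore given with all 4 libraries and without each ctrl library, and those of other genes where leaving out a ctrl library changed the sign or moved a large fold change.

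Type I interferons are antiviral cytokines whose genes are induced when sensors bind foreign or misplaced nucleic acid. RIG-I (Ddx58) and MDA5 (Ifih1) bind double-stranded RNA in the cytosol and signal through MAVS on mitochondria to the kinase TBK1, which phosphorylates the transcription factor IRF3 and thereby turns on Ifnb1. Secreted interferon-beta binds the receptor of IFNAR1 and IFNAR2, and signalling by its kinases then activates interferon-stimulated genes, among which are most of the sensor genes themselves. Glial cells of the brain, oligodendroglia included, are known to respond to type I interferon.

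Promoter sequences are shown for 5 genes because their start site regions hold or lack the short motifs of this pathway. RefSeq promoters of GRCm38.p6, reaching 250 bases before and 50 after the start site, were matched for 8 of the 10 genes. Dhx58 and Zbp1 had no entry. Capitals mark matches on either strand to GAAANNGAA (a core of the interferon-stimulated response element, ISRE), to AANNGAAA (a half-site of interferon regulatory factors, IRF) and to GGGAAATTC (an NF-kB site). The IRF and NF-kB motifs were chosen after the sequences had been seen, and IRF half-sites can overlap the ISRE core.

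The Ifnb1 promoter (GRCm38.p6, chr4:88522745-88523044, minus strand) is shown for its stretch of IRF half-sites followed by an NF-kB site, where the virus-inducible enhancer of this gene lies.
Ifnb1: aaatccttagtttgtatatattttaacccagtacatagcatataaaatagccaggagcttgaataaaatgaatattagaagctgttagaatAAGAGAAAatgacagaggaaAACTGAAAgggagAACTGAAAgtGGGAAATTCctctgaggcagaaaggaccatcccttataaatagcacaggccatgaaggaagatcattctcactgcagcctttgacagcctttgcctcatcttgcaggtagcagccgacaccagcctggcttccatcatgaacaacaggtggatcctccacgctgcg

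The promoters of Ifih1 (chr2:62646206-62646505, minus strand), Ddx58 (chr4:40239776-40240075, minus strand) and Eif2ak2 (chr17:78882523-78882822, minus strand) are shown because each held the ISRE core.
Ifih1: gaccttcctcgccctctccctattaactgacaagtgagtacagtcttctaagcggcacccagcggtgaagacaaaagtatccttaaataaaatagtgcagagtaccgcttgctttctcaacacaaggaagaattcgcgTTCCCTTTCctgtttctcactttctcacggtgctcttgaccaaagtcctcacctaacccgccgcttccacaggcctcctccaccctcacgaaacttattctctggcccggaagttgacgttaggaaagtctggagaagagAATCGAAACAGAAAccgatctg
Ddx58: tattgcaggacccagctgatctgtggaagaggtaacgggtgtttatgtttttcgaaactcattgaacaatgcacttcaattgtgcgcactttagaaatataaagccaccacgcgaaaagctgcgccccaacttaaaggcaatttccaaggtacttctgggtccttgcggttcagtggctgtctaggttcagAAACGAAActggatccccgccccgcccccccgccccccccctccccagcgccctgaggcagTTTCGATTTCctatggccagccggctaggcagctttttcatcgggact
Eif2ak2: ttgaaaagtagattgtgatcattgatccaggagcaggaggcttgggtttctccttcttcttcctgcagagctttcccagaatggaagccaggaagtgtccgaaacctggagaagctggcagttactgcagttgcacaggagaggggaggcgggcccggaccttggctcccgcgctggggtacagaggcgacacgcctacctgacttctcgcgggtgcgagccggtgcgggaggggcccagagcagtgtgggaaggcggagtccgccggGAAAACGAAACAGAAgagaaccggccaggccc

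The promoter of Mavs (chr2:131233813-131234112, plus strand) is shown as one that held none of these motifs.
Mavs: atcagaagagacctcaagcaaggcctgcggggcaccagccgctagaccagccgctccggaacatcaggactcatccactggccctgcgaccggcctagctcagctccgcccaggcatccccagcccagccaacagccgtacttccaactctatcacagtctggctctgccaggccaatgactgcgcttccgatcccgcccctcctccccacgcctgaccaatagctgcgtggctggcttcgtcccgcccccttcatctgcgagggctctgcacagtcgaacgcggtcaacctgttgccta

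The ISRE core was present in 3 of the 8 promoters (Ifih1, Ddx58 and Eif2ak2), beside 8.56% of 32851 promoters of the same length. Counting the start site as base 1, the match of Ddx58 covered bases 4 to 12. Ifih1 had matches at bases 33 to 41 and -112 to -104. Eif2ak2 had a pair of overlapping matches from base 19 to base 33. All 3 genes thus had a match within 50 bases after the start site. IRF half-sites were present in these promoters and in that of Ifnb1, beside 23.9% of all promoters. Ifnb1 had 3 of them between bases -159 and -119, and the NF-kB site followed at bases -116 to -108. That site was found in 0.253% of all promoters. Its letters were chosen after the sequences had been seen and leave no position free, so nothing is read from this share. A gamma-activated sequence, TTCNNNGAA, was present in the promoters of Ifnar1, Ifnar2 and Eif2ak2, beside 8.30% of all promoters, and is not in capitals above. Tbk1 and Mavs held none of the 4 motifs. A match is a description of these letters and not a measured binding site.

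**Figure D1:**
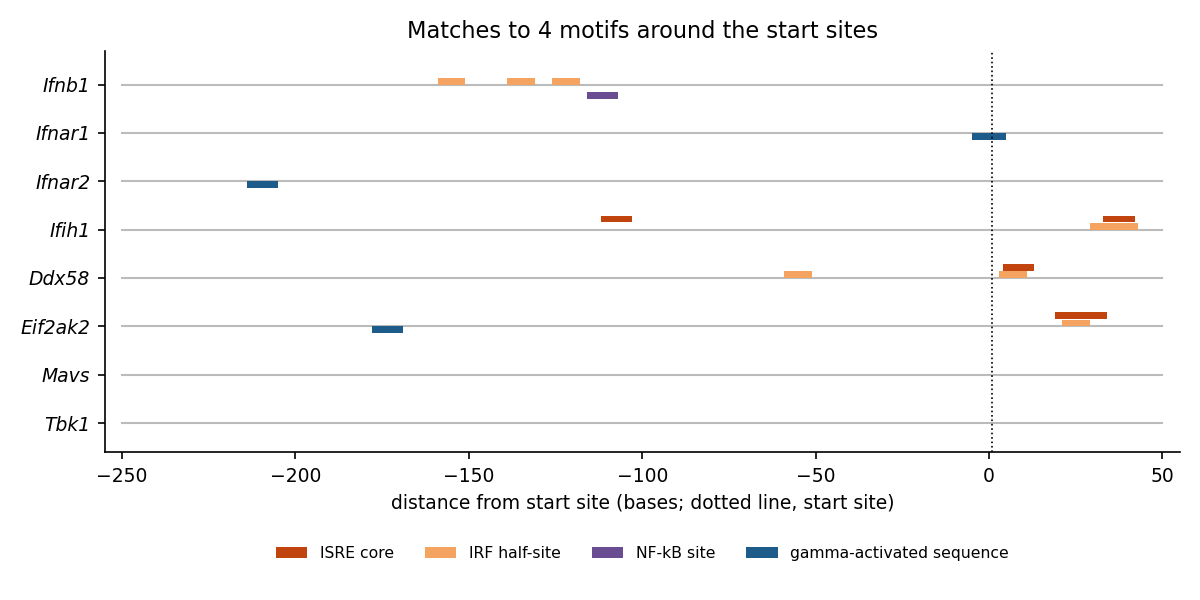
Positions of the 4 motifs in the 8 RefSeq promoters (x axis, bases from the start site; 1 line per gene; bars, matches on either strand). Matches to the ISRE core lie just after the start site in Ifih1, Ddx58 and Eif2ak2, and Ifih1 has a further match upstream. Ifnb1 has a row of IRF half-sites and an NF-kB site upstream, and Mavs and Tbk1 have none of the 4 motifs.

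The ligand gene Ifnb1 is an intronless gene of 750 nt (mm10, chr4:88522025-88522774, minus strand). It had 1 and 0 counts in the ctrl libraries and 28 and 26 counts in the Zfp276cko libraries. Both Zfp276cko libraries were above both ctrl libraries, and both ctrl libraries were below the floor of 3 counts. Exact Poisson intervals of the counts, at 95% and for counting error only, were 0.0253 to 5.57 and 0 to 3.69 in ctrl and 18.6 to 40.5 and 17.0 to 38.1 in Zfp276cko. Summed over libraries, 1 count stood against 54, a ratio of 41.2 after scaling, with an exact conditional interval of 7.09 to 1657 that covers counting error only and is not a test of the genotypes. The fitted log2 fold change, which depends on the prior count for so few reads, was 5.09 (SE 0.80), with 7.65 without ctrl 1 and 4.18 without ctrl 2. Even in Zfp276cko cells the transcript was scarce, at 1.07 and 0.945 CPM (counts scaled to a common library size). Its mean over the 4 libraries was under the minimum of 20 normalized counts for a call. Of the 10 genes, all of which passed the filter on low counts, Ifnb1 alone had fewer than 10 counts in a library and passed through the Zfp276cko libraries only.

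Other interferon ligands were close to undetected. Of 19 listed genes for interferon-alpha subtypes, interferon-epsilon, -kappa, -gamma and -lambda, 6 had a count in any library and 0 had enough for a test. Ifna5, an interferon-alpha gene, was at 0 counts in both ctrl libraries and at 2 counts in each Zfp276cko library. Ifnab was at 0 and 4 counts in the ctrl libraries, and at 0 and 1 in the Zfp276cko libraries. At this depth, 3 counts correspond to between 0.109 and 0.151 CPM, so lower levels of these ligands were not detectable. The study's methods count unique mappings, so reads that match several of these genes equally well would also be missed. Low counts are therefore not a measure of absence.

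The receptor genes lie near each other on chromosome 16. Ifnar1 (chr16:91485238-91507441, plus strand), the chain that carries TYK2, had 2079 and 1712 normalized counts in ctrl and 1728 and 1640 in Zfp276cko libraries. The groups overlapped, with ctrl 1 the highest library. The log2 fold change of Zfp276cko over ctrl was -0.17 (SE 0.13), with -0.02 without ctrl 1 and -0.32 without ctrl 2. Ifnar2 (chr16:91372783-91405589, plus strand), which encodes the chain that carries JAK1, had 1063 and 641 normalized counts in ctrl and 728 and 726 in Zfp276cko libraries. The Zfp276cko libraries lay between the ctrl libraries. The log2 fold change of Ifnar2 was -0.23 (SE 0.27) and changed its sign with the ctrl library left out, at 0.18 without ctrl 1 and -0.56 without ctrl 2. Per kb of exon, Ifnar1 was at 1.10 and 1.50 times the level of Ifnar2 in ctrl and at 1.33 and 1.27 times in Zfp276cko libraries, and at 1.53 to 2.08 times with the length of the longest annotated transcript.

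The genes for the 3 cytosolic RNA helicases had higher levels in Zfp276cko than in ctrl cells. Ifih1 (chr2:62595798-62646255, minus strand), which encodes MDA5, a sensor of long double-stranded RNA, had 468 and 261 normalized counts in ctrl and 2381 and 2432 in Zfp276cko libraries. Both Zfp276cko libraries were far above both ctrl libraries, and ctrl 2 was the lowest. Its group means were 364 ± 146 and 2406 ± 36.5 (SD, n = 2), a ratio of 6.60, and its log2 fold change was 2.72 (SE 0.31).

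Ddx58 (chr4:40203773-40239828, minus strand) encodes RIG-I, which recognizes the 5′ triphosphate ends of RNA. It had 1849 and 504 normalized counts in ctrl and 6495 and 6365 in Zfp276cko libraries. The groups did not overlap, but the ctrl libraries differed from each other by 1.87 on the log2 scale. The log2 fold change was 2.45 (SE 0.65), with 3.67 without ctrl 1 and 1.78 without ctrl 2.

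Dhx58 (chr11:100694884-100704271, minus strand) encodes LGP2, a helicase without a signalling domain that modulates the other two. It had 311 and 124 normalized counts in ctrl and 1365 and 1252 in Zfp276cko libraries. Again both Zfp276cko libraries were above both ctrl libraries. The log2 fold change of Dhx58 was 2.59 (SE 0.47), between 2.06 without ctrl 2 and 3.40 without ctrl 1, and that of Ifih1 ran from 2.35 to 3.20 in the same way. The values of the 3 helicase genes differed by at most 0.12 on the log2 scale between the Zfp276cko libraries, whereas in ctrl 1 they were above ctrl 2 by 0.84 for Ifih1, 1.33 for Dhx58 and 1.87 for Ddx58.

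The remaining sensors act by other routes. Zbp1 (chr2:173206612-173218923, minus strand), whose product binds Z-form nucleic acid and engages RIPK3, had 228 and 25.9 normalized counts in ctrl and 1457 and 1449 in Zfp276cko libraries. Its groups did not overlap, and it had the widest gap between ctrl libraries of the 9 genes with a count in each library, 3.14 on the log2 scale. Its log2 fold change of 3.52 (SE 0.98) therefore depended on the ctrl library, at 5.81 without ctrl 1 and 2.66 without ctrl 2. Eif2ak2 (chr17:78852564-78882573, minus strand) encodes PKR, a kinase that binds double-stranded RNA and halts translation through eIF2 alpha. It had 1903 and 734 normalized counts in ctrl and 4822 and 5223 in Zfp276cko libraries. Both Zfp276cko libraries were above both ctrl libraries, with a log2 fold change of 1.93 (SE 0.49), and 2.78 and 1.39 without ctrl 1 and ctrl 2. The exons of Eif2ak2 overlap the antisense gene Gm26637 over 174 nt (3.40% of its exon length). That gene had at most 43 counts in a library. Ifnar2 shares 315 nt of exon (9.46%) with Gm21970 on the same strand and Dhx58 141 nt (4.31%) with the antisense gene Dhx58os, both of which were listed at 0 counts in every library. How reads in such stretches were assigned and the strand setting of the counting are not given in the sources used here.

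The genes downstream of the sensors had nearly level counts. Mavs (chr2:131234063-131248025, plus strand), the adaptor of RIG-I and MDA5, had 965 and 889 normalized counts in ctrl and 959 and 937 in Zfp276cko libraries. The Zfp276cko libraries lay between the ctrl libraries, and the log2 fold change was 0.03 (SE 0.10), with the sign turning to -0.04 without ctrl 2. Tbk1 (chr10:121546455-121586787, minus strand), the kinase of IRF3, had 1380 and 1487 normalized counts in ctrl and 1711 and 1784 in Zfp276cko libraries. Both Zfp276cko libraries were above both ctrl libraries by a small margin. The log2 fold change of Tbk1 was 0.29 (SE 0.09) and stayed between 0.23 and 0.33 under the 10 alternatives run.

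**Figure D2:**
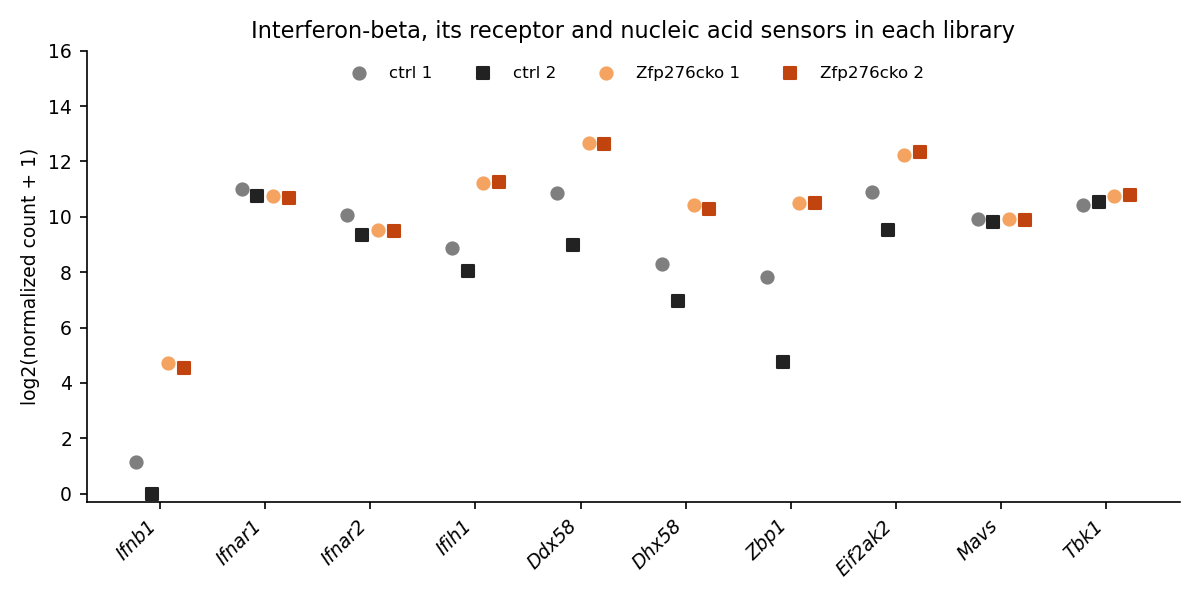
Normalized counts of the 10 genes in each library (y axis, log2 of the normalized count plus 1; grey and black, ctrl 1 and 2; light and dark orange, Zfp276cko 1 and 2). The Zfp276cko libraries lie close together, and above both ctrl libraries for Ifnb1, all 5 sensor genes and Tbk1, while Ifnar1, Ifnar2 and Mavs overlap.

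In all, 7 of the 10 genes had both Zfp276cko libraries above both ctrl libraries, and 0 had both below. Over the 15766 genes tested these shares were 26.8% above and 23.7% below. Scaled to total counts alone, Mavs joined the 7. With the edgeR quasi-likelihood test across all genes, 0 genes were called higher (0%) and 0 lower (0%), and none of the 10 was called. With DESeq2, 3.02% of 14879 genes were called higher and 2.27% lower, and Ifih1, Ddx58, Dhx58 and Eif2ak2 were among those called higher. Because the genes had been chosen on this contrast, nothing is read from these counts. The median log2 fold change was 2.19 over the 10 genes and -0.0013 over all genes tested, with quartiles of -0.21 and 0.25 for the latter. Between the 2 Zfp276cko libraries the largest difference among the 10 genes was 0.18 on the log2 scale, for Ifnb1.

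**Figure D3:**
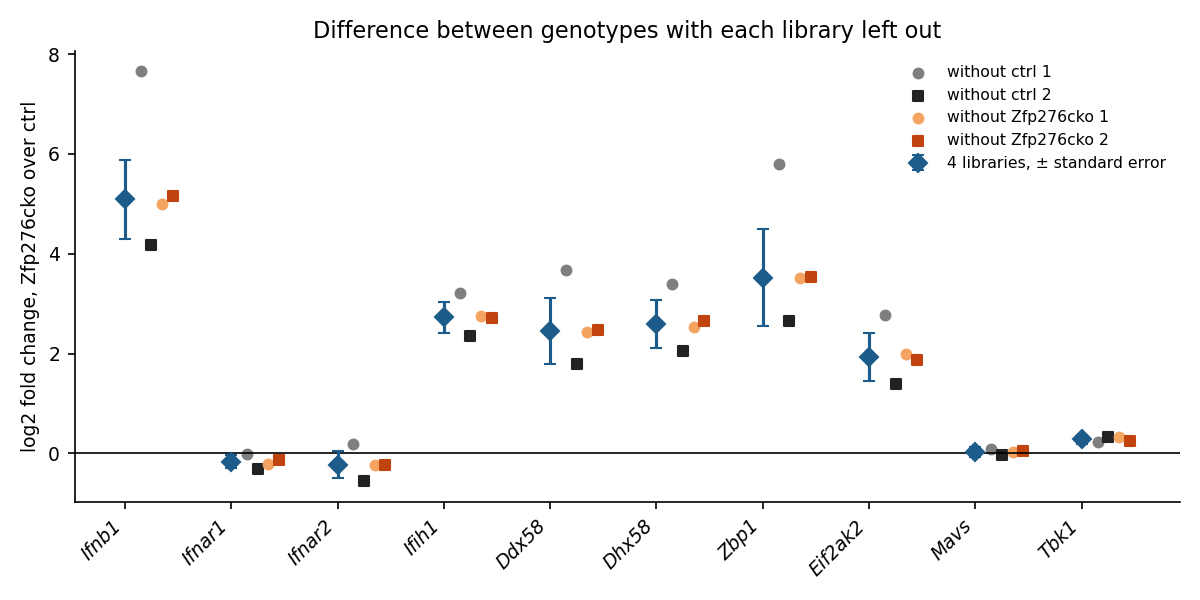
Log2 fold change of Zfp276cko over ctrl for each of the 10 genes (blue diamonds with standard errors, 4 libraries; other symbols, 1 library left out). Leaving out ctrl 1 or ctrl 2 moves Zbp1 between 5.81 and 2.66 and Ddx58 between 3.67 and 1.78, while leaving out a Zfp276cko library hardly moves any gene.

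Levels can be compared between genes per length, taken here as all annotated exons of a gene. In ctrl libraries the genes with the highest level per kb of exon were Tbk1 (14.9 and 16.1 CPM per kb), Ifnar1 (14.8 and 12.2) and Mavs (12.2 and 11.2). Eif2ak2 (15.7 and 6.07), Ifnar2 (13.5 and 8.15) and Ddx58 (11.1 and 3.03) followed, and their ranges overlapped those of their neighbours in the order. Dhx58 (4.02 and 1.60), Ifih1 (2.42 and 1.35) and Zbp1 (2.73 and 0.310) were lower and overlapped each other, and Ifnb1 was last with 0.0670 and 0 CPM per kb. With the length of the longest annotated transcript instead, the ctrl mean of Ddx58 was 12.8 CPM per kb, level with Mavs (12.8) and above Ifnar2 (11.8). Ifnar1 (20.51) then came before Tbk1 (20.05) and Eif2ak2 (12.9) before Mavs, so the order depends on the length used.

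In Zfp276cko libraries the order was another. Eif2ak2 (39.9 and 43.2 CPM per kb) and Ddx58 (39.0 and 38.2) came first, followed by Tbk1 (18.5 and 19.3). Zbp1 (17.5 and 17.4) and Dhx58 (17.6 and 16.2) overlapped each other and were ahead of Ifih1 (12.3 and 12.6). Ifnar1 (12.3 and 11.7) and Mavs (12.1 and 11.9) overlapped as well, and Ifnar2 (9.25 and 9.23) and Ifnb1 (1.43 and 1.26) closed the order. This order also depended on the length. With the longest transcript Ddx58 (70.9 and 69.5) was ahead of Eif2ak2 (47.3 and 51.2), and Ifih1 (18.4 and 18.8) overlapped Zbp1 (18.5 and 18.4). The level of the sensor Ddx58 relative to its adaptor Mavs per kb was 0.909 and 0.269 in ctrl libraries, and 3.21 and 3.22 in Zfp276cko libraries. With the longest transcript this ratio was 1.51 and 0.447 in ctrl, and 5.34 and 5.36 in Zfp276cko libraries, so that ctrl 1 moved to above 1 while the 2 Zfp276cko libraries stayed the highest under both lengths. Relative to Ifih1, Ddx58 was at 4.58 and 2.24 in ctrl and at 3.16 and 3.03 in Zfp276cko libraries, so this ratio overlapped between genotypes.

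Across the 4 libraries, patterns were compared by the Euclidean distance between log2(CPM + 0.5) values centred on each gene's mean. Among the 10 genes, Ifih1 and Dhx58 were at a distance of 0.34. The pairs Ifnar1 and Mavs (0.23), Tbk1 and Mavs (0.30) and Ifnar1 and Ifnar2 (0.32) were closer still. Between the ctrl libraries Ifnar2 differed by 0.73 on the log2 scale and Ifnar1 by 0.28, with smaller differences for Mavs and Tbk1. Zbp1 had no near neighbour, with a distance of 1.36 to Ddx58 as its nearest. Of all genes tested with a mean of at least 20 normalized counts, the 5 nearest to Ifih1 were Gm45418 (0.08), Ube2l6 (0.17), Gm43197 (0.18), H2-T22 (0.18) and Herc6 (0.22). Gm45418 had only 11.9 and 2.25 normalized counts in ctrl, where the added 0.5 CPM shrinks differences, and its log2 fold change was 3.99 (5.58 without ctrl 1 and 3.23 without ctrl 2) against 2.72 for Ifih1. Ube2l6, which encodes the conjugating enzyme of the ubiquitin-like protein ISG15, had 327 and 155 normalized counts in ctrl and 1658 and 1717 in Zfp276cko libraries. Among the 5 nearest to Eif2ak2 were Trim12c (0.15), Ccrl2 (0.15), Tmem140 (0.19) and Mmp27 (0.25). With 4 libraries these distances are a description only.

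The other genes of the pathway were taken from 10 lists with 87 genes, chosen with earlier results of these data known, of which 73 had a count and 65 were tested. With edgeR 0 of the 65 were called in either direction. At an unadjusted p with the same thresholds 21 were called higher and 1 lower, beside 806 and 476 of the 15766 genes tested. With DESeq2 17 were called higher and 1 lower. Over all genes tested, DESeq2 called 3.02% higher and 2.27% lower. Both Zfp276cko libraries were above both ctrl libraries for 38 of the 65 genes and below for 9, beside 26.8% and 23.7% of all genes tested. The median log2 fold change of the 65 genes was 0.26.

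Of the genes that act at the receptor, the kinase genes Jak1 (-0.26, SE 0.14, as log2 fold change) and Tyk2 (0.30, SE 0.14) were not called by either tool. Among the 5 genes that restrain receptor signalling, Usp18, whose product displaces JAK1 from IFNAR2, had 1044 and 243 normalized counts in ctrl and 9317 and 8628 in Zfp276cko libraries (log2 fold change 3.80, SE 0.76, with 5.21 without ctrl 1 and 3.09 without ctrl 2). DESeq2 called it higher together with the SOCS genes Socs1 (2.21) and Socs3 (1.46), and called the phosphatase gene Ptpn11 lower (-0.73, SE 0.10). The libraries of Ptpn11 did not overlap, with 12038 and 11873 normalized counts in ctrl and 7341 and 7093 in Zfp276cko. Of the 4 receptor genes for other interferons, 3 were tested and 0 were called by either tool, with log2 fold changes between -0.18 for Ifngr1, which turned to 0.09 without ctrl 1, and 0.60 for Il10rb.

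Of the 12 cofactors of RNA sensing, 11 were tested and 5 were called higher by DESeq2. Ddx60, a helicase gene, had the largest log2 fold change of this list (4.09, SE 0.76), with 366 and 78.8 normalized counts in ctrl and 3628 and 3917 in Zfp276cko libraries. Its groups were well apart, although the log2 fold change was 5.58 without ctrl 1 and 3.35 without ctrl 2. The others were Trim25 (1.71, with 2.44 without ctrl 1 and 1.21 without ctrl 2) and Rnf135 (1.11), ubiquitin ligases that act on RIG-I, the zinc finger protein gene Zc3hav1 (1.26), and Adar (1.10, SE 0.10, adjusted p = 0.0962 with edgeR), whose product edits double-stranded RNA and thereby limits MDA5 activation. Tarbp2, a partner of Dicer and inhibitor of PKR, was lowest at -0.41 (SE 0.14) and was not called.

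Among 10 genes of cytosolic DNA sensing, 9 were tested and DESeq2 called Ifi204 (2.73, SE 0.48, with 3.57 without ctrl 1 and 2.19 without ctrl 2) and Samhd1 (0.84, SE 0.16) higher. Mb21d1, which encodes the DNA sensor cGAS, was at 1.11 (SE 0.37) and Tmem173, which encodes STING, at 0.26 (SE 0.42), and neither was called. Tmem173 was at 0.94 without ctrl 1 and turned to -0.22 without ctrl 2. Rnaseh2b was lowest at -0.34 (SE 0.12). Of the 7 endosomal genes, Tlr3, the receptor for double-stranded RNA in endosomes, was called higher by DESeq2 (2.06, SE 0.29), and Tlr8 was lowest at -0.18 (SE 0.82) but at 1.57 without ctrl 1 and -0.97 without ctrl 2. In the list of 13 genes of MAVS and TBK1 signalling, Irf1 was called higher by DESeq2 (1.00, SE 0.21). Irf7, which amplifies interferon production, had a larger log2 fold change of 3.39 (SE 0.93) with 782 and 116 normalized counts in ctrl and 4756 and 4617 in Zfp276cko libraries, and was not called by either tool. It moved to 5.34 without ctrl 1 and to 2.57 without ctrl 2. Irf3, the direct substrate of TBK1, was at 0.02 (SE 0.11) and Irf5 lowest at -0.09 (0.02 without ctrl 2). Among 5 partners of ZBP1, Mlkl, the executor of necroptosis, was called higher by DESeq2 (1.83, SE 0.26), and Fadd was lowest at -0.06 (0.16 without ctrl 2). Of 7 genes for eIF2 alpha kinases and their partners, DESeq2 called the phosphatase subunit gene Ppp1r15a higher (0.79, SE 0.10), and the kinase gene Eif2ak3 was lowest at -0.39.

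**Figure D4:**
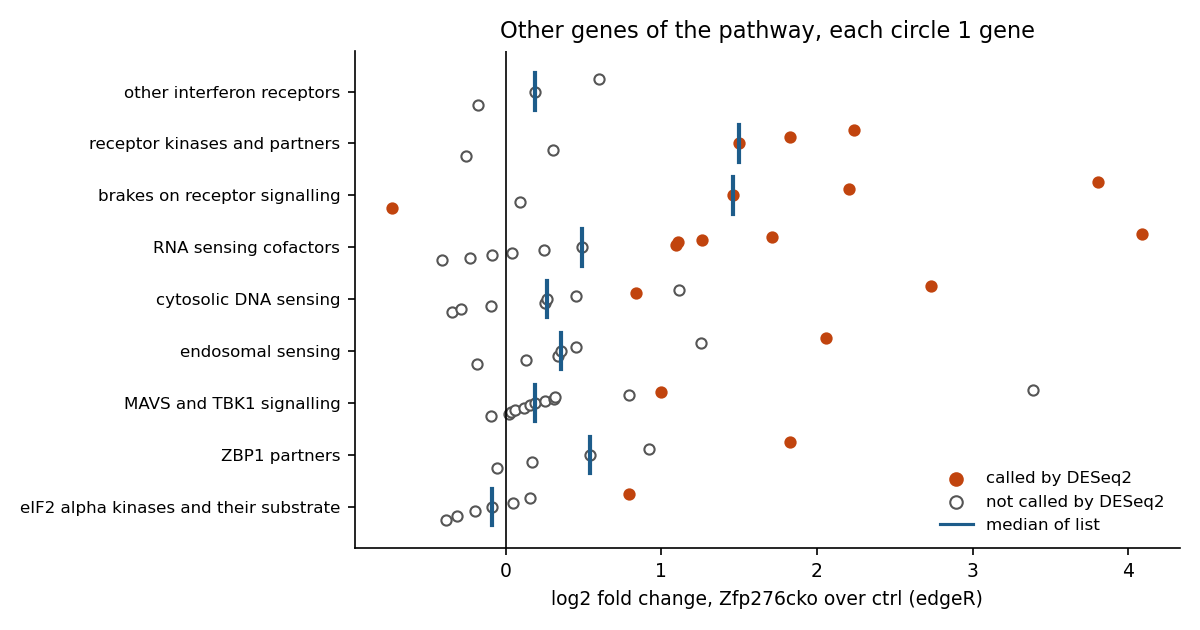
Log2 fold changes (x axis, edgeR) of the 65 tested genes in 9 pathway lists (each circle, 1 gene; filled, called by DESeq2; blue bar, median of the list). Calls are spread over 8 lists, from 3.80 for Usp18 and 4.09 for Ddx60 to -0.73 for Ptpn11, and 0 of the 65 genes was called by edgeR.

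Markers of the cell types that such cultures can hold were summed in each library, since in bulk RNA fewer cells of a type and less RNA per cell cannot be told apart. The 11 oligodendrocyte markers summed to 15072 and 19656 CPM in ctrl and 10563 and 10737 CPM in Zfp276cko libraries. Mbp was the most abundant, and both Zfp276cko libraries were below both ctrl libraries for 8 of the 11 genes, of which DESeq2 called 7 lower and edgeR 0. The 15 microglia markers, all with counts in each library, summed to 3194 and 2218 CPM in ctrl and 2422 and 2498 CPM in Zfp276cko libraries. Their sums thus overlapped between genotypes. Fcrls, the most abundant of them in both ctrl libraries, was lower in both Zfp276cko libraries (538 and 775 CPM in ctrl, 278 and 286 CPM in Zfp276cko). DESeq2 called Ptprc and Cd68 higher and Fcrls lower, and 10 of the 15 genes overlapped. Csf1r, the receptor gene that defines macrophages and microglia, had 9609 counts in ctrl 1 and 1644 in ctrl 2, with 3409 and 3511 in the Zfp276cko libraries in between. Between the ctrl libraries, 11 of the 15 microglia markers were higher in ctrl 1 and 4 in ctrl 2, among the latter Aif1 with 1051 and 2847 counts, and the median log2 ratio of ctrl 1 to ctrl 2 was 0.66.

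The 8 astrocyte markers summed to 1457 and 1174 CPM in ctrl and 1298 and 1242 CPM in Zfp276cko libraries, with Gfap the most abundant. The 9 neuron markers summed to 673 and 1072 CPM in ctrl and 671 and 730 CPM in Zfp276cko libraries, with Map2 the most abundant. Syt1 had 28 counts in ctrl 1 and 777 in ctrl 2. The 8 fibroblast and vessel markers summed to 343 CPM in ctrl 1 and to 11.2 CPM in ctrl 2, against 16.3 and 14.8 CPM in Zfp276cko libraries. Col1a2, the most abundant of them in ctrl 1 only, had 2277 counts in ctrl 1 and 37 in ctrl 2. In the other libraries Pecam1 was the most abundant of them, and Cldn5 was at 0 counts in every library. The 6 markers of plasmacytoid dendritic and lymphoid cells summed to 65.9 and 15.7 CPM in ctrl and 275 and 253 CPM in Zfp276cko libraries, and nearly all of this was Bst2, itself an interferon-stimulated gene. Siglech, which is expressed by plasmacytoid dendritic cells and also by mouse microglia, was listed at 0 counts in every library, although other microglia markers had counts. Without ctrl 1 the log2 fold changes of Ifih1, Ddx58, Dhx58, Zbp1 and Eif2ak2 were between 2.78 and 5.81, and without ctrl 2 they were between 1.39 and 2.66. The part of other cell types in the differences between genotypes was not tested.

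**Figure D5:**
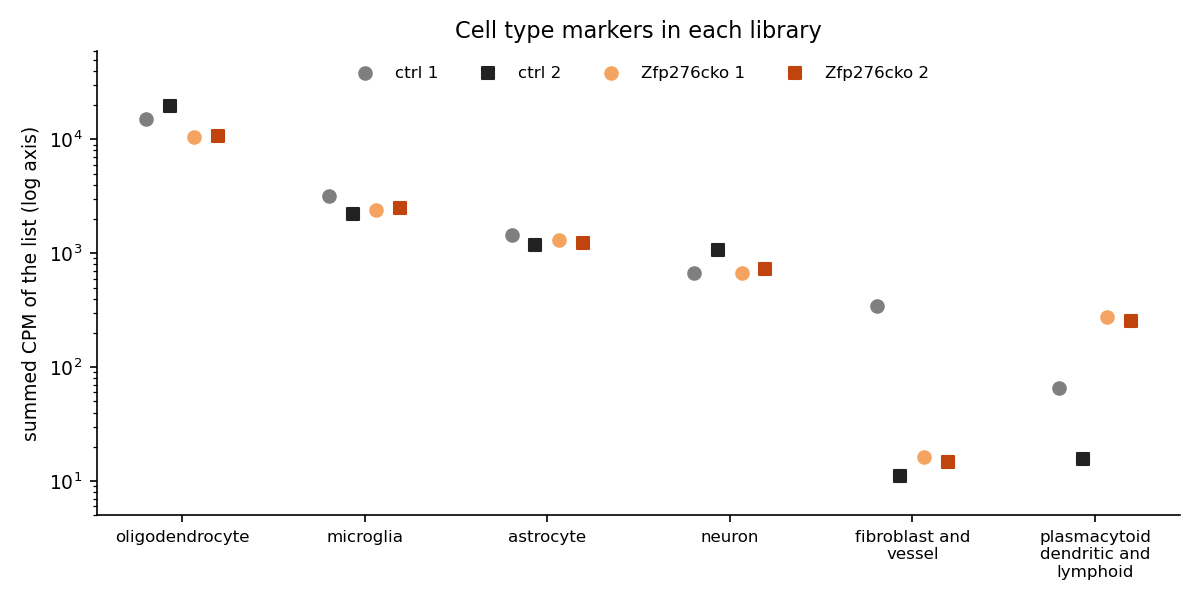
Summed CPM of 6 marker lists in each library (y axis, log scale; grey and black, ctrl 1 and 2; light and dark orange, Zfp276cko 1 and 2). Oligodendrocyte markers are lower in both Zfp276cko libraries, ctrl 1 stands apart with 343 CPM of fibroblast and vessel markers, and microglia and astrocyte sums overlap between genotypes.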

How the data were processed

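RNA-Seq was performed on 4 libraries (2 ctrl, 2 Zfp276cko) as single-end reads of 101 bp from stranded mRNA libraries. Per the submitters' processing notes, the authors used STAR 2.5.4a and featureCounts 1.5.1 on mm10, while the study's methods name HTSeq and Ensembl genes. The deposited values are raw counts per gene symbol. Counts were filtered with filterByExpr and scaled with TMM in edgeR 4.0.16 (R 4.3.3), and normalized counts are CPM brought to the mean library size. Genes were called where the Benjamini-Hochberg adjusted p did not exceed 0.05, the log2 fold change reached 0.6 in size and the mean reached 20 normalized counts. Standard errors come from the quasi-likelihood F statistic. DESeq2 1.42.0 was an alternative.

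The members, the pathway and marker lists and the tests were chosen with earlier results of these data known. Genes named were the members, the genes of the lists (those called by either tool, otherwise the highest and lowest of a list), Zfp276 and the 5 nearest neighbours of Ifih1 and Eif2ak2. Tmem173, Mb21d1, Jak1, Tyk2, Irf3, Ptprc, Cd68, Csf1r, Aif1 and Syt1 are named in addition, with their values known. Gene positions and exon lengths came from GENCODE M21, which holds 93.2% of the symbols. A few genes under this rule are not reported here. Alternatives were other size factors, filters, tools, prior counts and gene lengths, a replicate block and leaving out each library.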

Additional observations from a re-analysis of the deposited data

How the results depend on the processing

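For the 10 genes, log2 fold changes kept their sign under all alternatives run, except Ifnar2 (0.18 without ctrl 1) and Mavs (-0.04 without ctrl 2). Ifnb1, with 1 count in ctrl, ran from 3.32 with a prior count of 2 to 7.65 without ctrl 1, and was not tested when at least 10 counts were required in every library. The median over the 10 genes was between 1.59 and 2.99 with 1 library left out. Without the filter on low counts edgeR called 8 genes higher. DESeq2 called 449 genes higher and 338 lower, and 17 and 1 of the other pathway genes. An unadjusted p called 806 genes higher and 476 lower, and 21 and 1 of the other pathway genes. With 1 library left out, calls ran from 0 to 1792 genes higher and from 0 to 1286 lower, and from 0 to 27 and 0 to 2 among the other pathway genes. Calls were made without ctrl 1 (1689 higher, 952 lower) or ctrl 2 (1792 and 1286), where the lone ctrl library is assumed to vary like the Zfp276cko libraries, and none without either Zfp276cko library.

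With the replicate block 0 genes were called and the median over the 10 genes was 2.40. The correlation across genes between the deviations of same-numbered libraries, which form 2 pairs, was -0.00503. So few pairs cannot decide whether same-numbered preparations had more in common than a number. With 2 libraries a genotype and ctrl libraries that differ this much, the smallest adjusted p of edgeR was 0.0725. Depth limits Ifnb1 and the other ligands, where 3 counts are 0.109 to 0.151 CPM, and the counting of unique mappings may lower the counts of similar ligand genes further.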
